A study of Homo sapiens with 12 samples.

Results

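The comparison set libraries made with doxycycline against libraries made without it in all 3 lines of the study at once. It used 12 of the 12 libraries, 6 induced and 6 uninduced, with the line as a block. All come from LS180 cells, an established line of human colorectal cancer. The GFP line carries an inducible green fluorescent protein, the SOX9 line inducible wild-type SOX9 with a V5 tag, and the M303 line an inducible truncated SOX9 with a V5 tag. Induced cells received 0.5 µg/ml doxycycline for 24 h, and uninduced cells received none. What the uninduced cells received in its place, and whether a line is 1 clone, are not given in the sources used here. Each of the 6 groups has 2 libraries of poly(A)-selected RNA. The question was which genes moved the same way in all 3 lines and whether the GFP line, which has no SOX9 construct, gave the same direction by itself. Per the labels, the drug and the induced construct go together in every induced library, so a response to doxycycline and a response to making any transgene product cannot be told apart.

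Doxycycline is a tetracycline antibiotic. In inducible systems it binds an engineered regulator and turns a transgene on. Tetracyclines block the small subunit of the bacterial ribosome. They also act on the related ribosome inside mitochondria, which translates only the messages encoded by mitochondrial DNA. Cells answer impaired mitochondrial translation in part through the integrated stress response, in which the transcription factor ATF4 raises genes of amino acid synthesis and transport. Tetracyclines also bind metal ions and inhibit matrix metalloproteinases. Cells remove many drugs and signalling molecules with ATP-binding cassette transporters of the plasma membrane.

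Only 2 of 18219 tested genes passed the test of the shared effect, and both were higher with doxycycline. They were ABCC4, which rose 1.57-fold (95% confidence interval 1.41 to 1.75), and CEMIP, which rose 1.21-fold (1.13 to 1.3). ABCC4, also called MRP4, is an efflux pump of the plasma membrane that exports cyclic nucleotides, prostaglandins and drugs. CEMIP binds hyaluronan, a sugar polymer of the extracellular matrix, and takes part in its breakdown. The 2 genes are 0.011% of those tested, and 0 genes passed as lower. At an unadjusted p under 0.05 there were 1441 genes (7.91%), 774 of them higher (4.25%) and 667 lower (3.66%). The test was edgeR's quasi-likelihood test with Benjamini-Hochberg adjustment, called at an adjusted p under 0.05. All values below come from it unless stated.

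The promoters of both called genes are shown because they are the only genes of the shared effect that passed. Each run is the 200 bases that end 51 bases before the annotated RefSeq start (GRCh38.p14), read 5′ to 3′ on the gene's own strand. ABCC4 lies at chr13:95301502-95301701 (minus strand) and CEMIP at chr15:80779120-80779319 (plus strand). Capitals mark matches, on either strand, to the GC box GGGCGG, to the core of the antioxidant response element TGACNNNGC, or to the SOX core AACAAT.
ABCC4: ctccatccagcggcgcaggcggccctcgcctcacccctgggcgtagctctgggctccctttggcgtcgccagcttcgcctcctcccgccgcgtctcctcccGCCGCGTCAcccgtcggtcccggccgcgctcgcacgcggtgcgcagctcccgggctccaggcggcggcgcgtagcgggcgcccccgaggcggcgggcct
CEMIP: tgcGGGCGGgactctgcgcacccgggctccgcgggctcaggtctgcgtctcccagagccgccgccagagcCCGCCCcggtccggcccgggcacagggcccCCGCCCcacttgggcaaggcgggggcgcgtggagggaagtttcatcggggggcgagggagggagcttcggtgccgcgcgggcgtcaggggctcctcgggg
The ABCC4 window is 79.5% G and C and holds 1 antioxidant response element core, on the opposite strand, with 0 GC boxes and 0 SOX cores. The CEMIP window is 78.5% G and C and holds 3 GC boxes, with 0 matches to the other motifs. No motif was shared by the 2 windows. Of 35116 RefSeq promoter windows of the same length, 35% held a GC box, 8.27% an antioxidant response element core and 7.54% a SOX core. These are letter matches only.

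ABCC4 (ENSG00000125257) spans chromosome 13 from 95019835 to 95301475 on the minus strand, in the GRCh38 coordinates of the deposited table, and overlaps 0 other genes there. Its level is given as CPM, the counts scaled to a common library total with TMM factors (trimmed mean of M-values). The uninduced libraries measured 19.7 and 20 CPM in the GFP line. They measured 19.7 and 21.6 CPM in the M303 line, and 21.3 and 19.4 CPM in the SOX9 line. All 6 uninduced libraries thus sat within a narrow band whatever construct they carried. The induced libraries measured 31.9 and 29.9 CPM in the GFP line. They measured 28.9 and 26.5 CPM in the M303 line, and 37.6 and 37.7 CPM in the SOX9 line. Every induced library lay above every uninduced one, in each line and across lines. The mean went from 20.3 ± 0.936 to 32.1 ± 4.65 CPM (SD, n = 6).

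The shared log2 fold change of ABCC4 was 0.65 (SE 0.073, adjusted p = 0.000191). By line it was 0.64 (SE 0.11) in the GFP line, 0.42 (SE 0.11) in the M303 line and 0.89 (SE 0.11) in the SOX9 line. The estimate of the GFP line alone thus had the direction of the other lines, at almost the size of the shared one. ABCC4 had the smallest p of all 18219 genes in the GFP line, and its adjusted p there was 0.169, above the threshold. In the SOX9 line it passed (adjusted p = 2.11e-05) and ranked 65. In the M303 line it ranked 15 and did not pass (adjusted p = 0.9998). The test for a difference between the 3 line effects gave an adjusted p of 0.571. The SOX9 line exceeded the GFP line by 0.25 on the log2 scale, with a 95% interval from -0.07 to 0.56, and the M303 line differed from the GFP line by -0.22, with an interval from -0.54 to 0.1. The widest gap was between the SOX9 and M303 lines, 0.46 with an interval from 0.15 to 0.78 and an adjusted p of 0.38. Without the SOX9 line the adjusted p of ABCC4 was 0.076 and its log2 fold change 0.53.

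CEMIP (ENSG00000103888) spans chromosome 15 from 80779343 to 80951776 on the plus strand. Its span, introns included, overlaps the spans of 4 genes of the opposite strand. Whether their exons overlap, where unstranded counts could not tell the genes apart, was not tested. Its uninduced libraries measured 683 and 703 CPM in the GFP line. They measured 665 and 671 CPM in the M303 line, and 657 and 695 CPM in the SOX9 line. Its induced libraries measured 807 and 763 CPM in the GFP line. They measured 763 and 788 CPM in the M303 line, and 874 and 957 CPM in the SOX9 line. The lowest induced library, 763 CPM, lay above the highest uninduced one, 703 CPM.

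The shared log2 fold change of CEMIP was 0.28 (SE 0.046, adjusted p = 0.0445). It was 0.18 in the GFP line, 0.21 in the M303 line and 0.44 in the SOX9 line, and it passed within a line only in the SOX9 line (adjusted p = 0.000421). The interaction test over the 3 lines gave an adjusted p of 0.626. The excess of the SOX9 line over the GFP line was 0.26, with a 95% interval from 0.06 to 0.46. CEMIP did not pass when any of 10 of the 12 libraries was left out singly, with adjusted p-values up to 0.256. The exceptions were replicate 2 of the uninduced and replicate 2 of the induced GFP line. It also did not pass with RLE scaling (adjusted p = 0.0549), without the M303 line (adjusted p = 0.231) or without the SOX9 line (adjusted p = 0.9999).

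**Figure D1:**
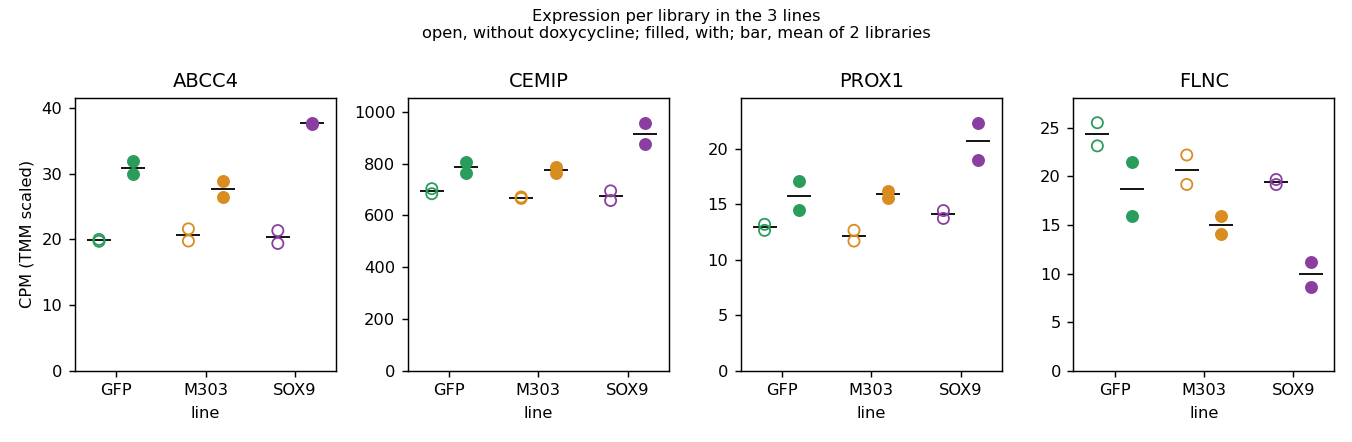
CPM (y axis, linear from 0) of ABCC4, CEMIP, PROX1 and FLNC, 1 panel per gene, by line (x axis). Open points are uninduced and filled points induced libraries, and bars are means of 2 libraries. In ABCC4 all 6 induced libraries, from 26.5 to 37.7 CPM, sit above all 6 uninduced ones, from 19.4 to 21.6 CPM.

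No other ABCC transporter and no tested neighbour of either gene passed. These sets were chosen after their values were seen. Of 7 ABCC transporters that averaged 1 log2 CPM or more, the 6 other than ABCC4 had shared log2 fold changes from -0.15 (ABCC6) to 0.13 (ABCC3), and their lowest adjusted p was 0.581. The 6 nearest tested genes around ABCC4, 3 on each side, ranged from -0.09 to 0.24, with a lowest adjusted p of 0.761. Around CEMIP they ranged from -0.11 to 0.07, and ABHD17C, the nearest at 24 kb, had 0.07 (adjusted p = 0.732).

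A check that shares no library with the choice of genes was made by leaving out each line. Fitted on the M303 and SOX9 lines alone, 118 genes passed, 61 higher and 57 lower (0.648% of all tested). In the GFP line, fitted by itself, 63 of these 118 (53.4%) had the same sign, against 49.5% of all tested genes. Their median log2 fold change in the called direction was 0.41 in the 2 lines that chose them and 0.01 in the GFP line. For most of these genes the other lines' response was thus not seen at its size in the GFP line.

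Of the 118, 4 (3.39%) had the same sign and an unadjusted p under 0.05 in the GFP line, against 1.27% of all genes, and 2.54% of all genes had such a p there in either direction. They were ABCC4, FLNC, PAG1 and ATP2A3, which encodes a calcium pump of the endoplasmic reticulum, and 0 of the 118 passed after adjustment. ABCC4 had a log2 fold change of 0.66 in the 2 other lines and 0.64 (SE 0.14, unadjusted p = 1.46e-05, adjusted p = 0.267) in the GFP line. CEMIP had 0.33 in the 2 other lines and 0.18 (SE 0.11, unadjusted p = 0.0927) in the GFP line. With the M303 line left out, 1 gene (0.00549%) passed in the GFP and SOX9 lines. That gene was ABCC4, and its log2 fold change in the M303 line fitted alone was 0.42 (unadjusted p = 0.0018, a level under 0.05 that 4.95% of all genes reached). After adjustment 3 genes (0.0165%) passed in the M303 line fitted alone, and ABCC4 was not among them. With the SOX9 line left out, 0 genes passed in edgeR and 478 had an unadjusted p under 0.05. ABCC4 had an adjusted p of 0.076 there, and it passed in the SOX9 line fitted alone with an estimate of 0.89 (adjusted p = 9.82e-05).

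The line effects differed in number and correlated weakly. In the GFP line 0 genes passed and 580 (3.18%) had an unadjusted p under 0.05. In the M303 line 1 gene (0.00549%) passed, SOX9 itself, and 662 (3.63%) had an unadjusted p under 0.05. In the SOX9 line 541 genes passed (2.97%). The interaction of line and doxycycline passed for 133 genes (0.73%), and 1301 (7.14%) had an unadjusted p under 0.05. Averaging the 3 line effects in place of the additive model gave 186 genes (1.02%), of which 174 also passed in the SOX9 line. Their median sizes in the called direction were 0.06 in the GFP, 0.21 in the M303 and 0.85 in the SOX9 line. Of the 186, 121 (0.664% of those tested) had the same sign in every line, and 17 of these had an unadjusted p under 0.05 in the GFP line. The GFP values took part in choosing the 186, so neither count is a separate check of that line. Over the 8529 genes that averaged 4 log2 CPM or more, Pearson's r of the log2 fold changes was -0.21 between the GFP and M303 lines, 0.05 between GFP and SOX9, and 0.32 between M303 and SOX9. Each pair has no library in common, and the points are genes of the same few libraries, which are not independent.

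**Figure D2:**
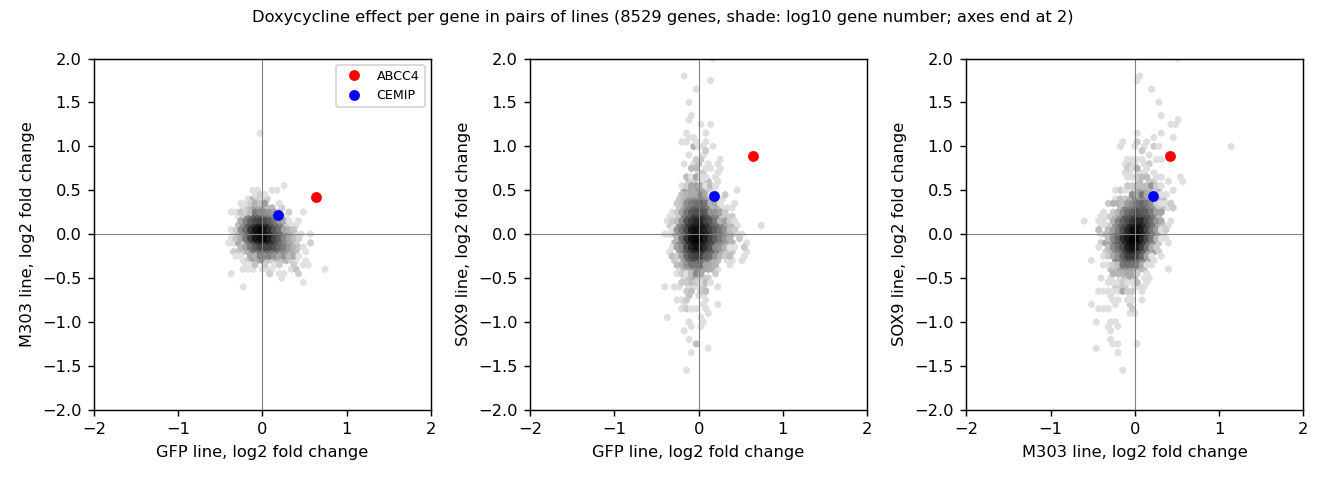
Log2 fold change with doxycycline in one line against another, for the 8529 genes that averaged 4 log2 CPM or more, drawn as bins whose shade is the log10 number of genes (axes end at 2, and 1 gene lies beyond). The cloud of the M303 and SOX9 lines leans upward (r = 0.32), while the panels with the GFP line do not (r = -0.21 and 0.05), and ABCC4 lies above 0 on every axis.

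The same sign in all 3 lines was found for 4858 genes, 26.7% of those tested, with 2524 higher (13.9%) and 2334 lower (12.8%). The 6 mixed patterns with no line at 0 each held between 9.29% and 14.8% of genes, and both shared signs lay within that range. In 125 genes (0.686%) both induced libraries lay above both uninduced ones in every line, and in 136 (0.746%) they lay below. All 6 induced libraries lay above all 6 uninduced ones in 30 genes (0.165%) and below them in 29 (0.159%). Among these, the 24 higher and 26 lower genes that averaged 1 log2 CPM or more had median sizes of 0.21 log2 in either direction. ABCC4, at 0.65, and CEMIP, at 0.28, are among the 30.

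Beyond the called pair, the naming rule filled each direction to 6 with the genes of smallest p that had the same sign in every line. None of these passed, and their values are descriptions. On the higher side PROX1, a homeobox transcription factor, had a lowest, median and highest level of 11.7, 12.94 and 14.45 CPM without doxycycline and 14.53, 16.66 and 22.37 CPM with it. The groups of 6 were apart by a small margin, and the shared log2 fold change was 0.41 (adjusted p = 0.16; 0.29 in the GFP, 0.39 in the M303 and 0.55 in the SOX9 line). LRIG1, a membrane protein that restrains ErbB receptors, went from a median of 51.6 to 60.6 CPM, and its 2 groups of 6 did not overlap. Its line values were 0.12, 0.22 and 0.59 (GFP, M303, SOX9; shared adjusted p = 0.192). BRME1, a factor of meiotic recombination, went from a median of 22.2 to 26.8 CPM with nearly even line values of 0.3, 0.27 and 0.41 (adjusted p = 0.205). ADRA2C, an alpha-2 adrenergic receptor, had line values of 0.24, 0.33 and 0.91 (adjusted p = 0.205), and its groups overlapped across lines.

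On the lower side FLNC, which encodes the actin crosslinker filamin C, came nearest to the threshold. Its uninduced libraries measured 25.5 and 23.1 CPM in the GFP line, 22.2 and 19.2 CPM in the M303 line, and 19.2 and 19.7 CPM in the SOX9 line. Its induced libraries measured 21.4 and 15.9 CPM in the GFP line, 14 and 15.9 CPM in the M303 line, and 8.64 and 11.2 CPM in the SOX9 line. Within each line the induced pair lay lower, while across lines the groups overlapped through 1 induced GFP library. The shared log2 fold change was -0.6 (SE 0.1, adjusted p = 0.058), and the line values were -0.38, -0.47 and -0.98 (GFP, M303, SOX9).

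PAG1, a membrane adaptor that recruits the kinase CSK, had a shared value of -0.42 (adjusted p = 0.154), and KRT4, a keratin of stratified epithelium, had -0.47 (adjusted p = 0.18). In both genes all 6 induced libraries lay below all 6 uninduced ones, KRT4 with 8.91 to 15 CPM against 16.3 to 17.9 CPM. FMOD, a small collagen-binding proteoglycan, had -0.49 (adjusted p = 0.205). AQP3, a channel for water and glycerol, had -0.25 (adjusted p = 0.205), and its GFP line value was -0.07. MT-ND6, a respiratory chain subunit encoded in mitochondrial DNA, had -0.31 (adjusted p = 0.192). In 11 of these 12 genes, ABCC4 and CEMIP included, the SOX9 line held the value farthest from 0, and MT-ND6 was the exception. The SOX9 line took part in choosing the 12, and the same share over all tested genes is not given here. The count is thus not a trait particular to these genes.

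**Figure D3:**
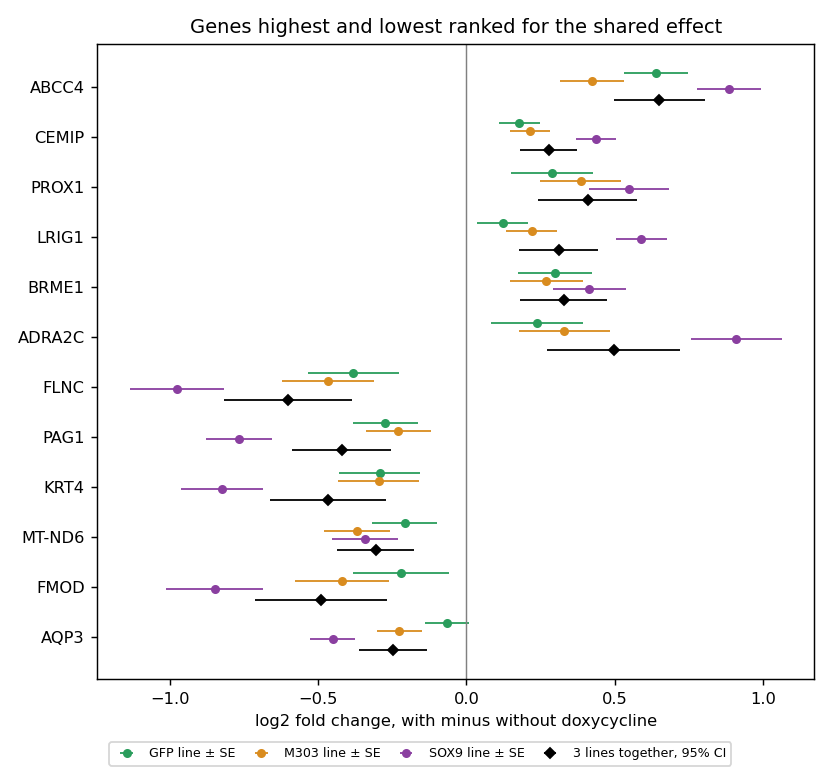
Log2 fold change with doxycycline for the 12 genes chosen by the naming rule, the shared estimate with its 95% interval (black) and the 3 line estimates with their SE (colours). ABCC4 and CEMIP are the only ones past the adjusted threshold, and the GFP value of ABCC4, 0.64, lies at its shared value, 0.65.

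The 13 messages encoded in mitochondrial DNA were described next, because the mitochondrial ribosome is a known target of tetracyclines. None passed the test. All 13 had a shared log2 fold change below 0, as 48.8% of all tested genes did, from -0.31 (MT-ND6) to -0.02 (MT-ND3), with a median of -0.18 against 0.003 over all tested genes. Of the 13, 8 had an unadjusted p under 0.05, where 3.66% of all genes were lower at that p, and 8 had the same sign in all 3 lines. These messages come from long shared precursors and the same libraries, so they are not 13 separate observations. In the GFP line 12 of 13 were below 0, in the M303 line 9 and in the SOX9 line 13, with medians of -0.26, -0.07 and -0.2.

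By role, the subunits of complex I had shared values of -0.31 (MT-ND6), -0.24 (MT-ND4L), -0.23 (MT-ND5), -0.21 (MT-ND4), -0.13 (MT-ND1), -0.1 (MT-ND2) and -0.02 (MT-ND3). MT-CYB, of complex III, had -0.19. The cytochrome oxidase subunits had -0.19 (MT-CO1), -0.15 (MT-CO2) and -0.14 (MT-CO3), and those of ATP synthase -0.12 (MT-ATP6) and -0.18 (MT-ATP8). Adjusted p-values of these 13 ran from 0.192 to 0.986. None of the 13 passed the interaction test (adjusted p from 0.372 to 0.973), so differences between the lines were not shown for any of them. MT-CO1, with the smallest interaction p of the 13, went from 4436 ± 189 to 3460 ± 13.2 CPM in the GFP line, from 3900 ± 326 to 3848 ± 115 CPM in the M303 line, and from 4317 ± 139 to 3779 ± 184 CPM in the SOX9 line (mean ± SD of 2 libraries). The line values were -0.36, -0.02 and -0.19 on the log2 scale. MT-ND6 had -0.21, -0.37 and -0.34 in the same order. It is the only one of these messages on the light strand. Mitochondrial genes have near-identical copies in the nuclear genome and partners that abut or overlap them, and the counts drop reads that map to several places and ignore strand, so the split of reads among them is uncertain.

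As a share of all counts, the 13 messages took 1.35% and 1.23% in the uninduced GFP libraries and 1.08% and 1.06% in the induced ones. They took 1.23% and 1.13% without and 1.2% and 1.11% with doxycycline in the M303 line. In the SOX9 line they took 1.28% and 1.24% without and 1.21% and 1.06% with it. The groups did not overlap in the GFP and SOX9 lines and overlapped in the M303 line. The means were 1.24% ± 0.071 and 1.12% ± 0.068 (SD, n = 6), and across lines the ranges, 1.13% to 1.35% and 1.06% to 1.21%, overlapped. The mitochondrial share of a library also depends on RNA quality and on the selection of poly(A) RNA, and the part of these in the difference was not tested.

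**Figure D4:**
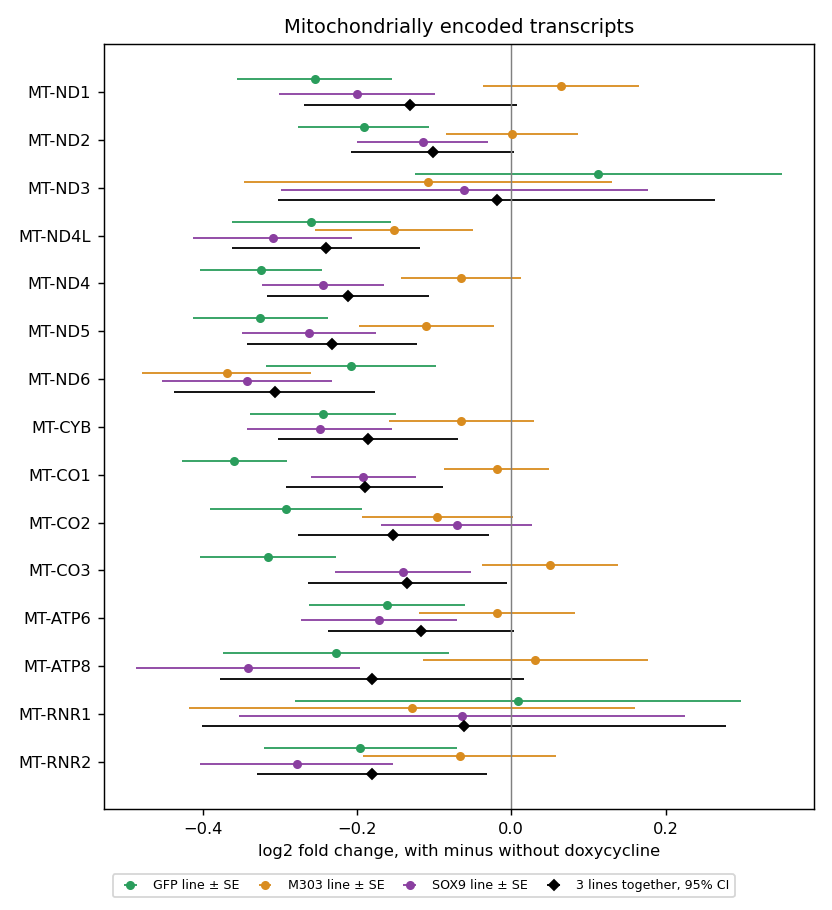
Log2 fold change with doxycycline of the messages and ribosomal RNAs encoded in mitochondrial DNA, for the shared effect (black, 95% interval) and each line (colours, SE). All 13 messages have a shared value below 0, and the M303 line lies nearest to 0 in the median (-0.07).

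Nuclear genes of the same machinery had shared medians nearer to 0 than the 13 messages. This did not hold within the M303 line. There the respiratory chain subunits (-0.107) and mitochondrial ribosomal proteins (-0.092) had medians farther from 0 than the 13 messages (-0.065). The counts below at an unadjusted p under 0.05 stand beside 4.25% of all genes higher and 3.66% lower. Of 75 nuclear respiratory chain subunits, 0 passed, 1 was higher and 1 lower at an unadjusted p under 0.05, and the median was -0.01, with line medians of 0.14, -0.11 and -0.06 (GFP, M303, SOX9). Of 80 mitochondrial ribosomal proteins, 0 passed, 2 were lower at that p, and the median was -0.04. Their line medians were 0.047, -0.092 and -0.082 in the same order. Of 37 factors of mitochondrial transcription, RNA handling and translation, 0 passed and 4 were lower at that p, with a median of -0.02. Among 14 mitochondrial chaperones and proteases, where the mitochondrial unfolded protein response would be read, 0 passed, and 2 were lower at that p. Their median was -0.057, with line medians of 0.014, -0.025 and -0.18 (GFP, M303, SOX9). The chaperonin HSPD1 stood at -0.11 (adjusted p = 0.477).

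Of 37 integrated stress response genes, 0 passed, 4 were higher and 3 lower at an unadjusted p under 0.05, and the median was 0.005. Over all genes 4.25% were higher and 3.66% lower at that p. DDIT3, which encodes the stress factor CHOP, had 0.46 (adjusted p = 0.499; 0.75, 0.27 and 0.38 in the GFP, M303 and SOX9 lines). ATF4, the central factor, had 0.06 (SE 0.048) and PSAT1, of serine synthesis, 0.07. CHAC1, which degrades glutathione, had 0.06. TRIB3, a pseudokinase target of the pathway, had -0.15 and ASNS, asparagine synthetase, -0.04 (SE 0.201). The ASNS value is imprecise and its sign turned when single M303 libraries were left out. ASNS averaged only 0.89 log2 CPM and DDIT3 1.63 log2 CPM. The ASNS span, introns included, overlaps 1 gene on the same strand and 1 on the opposite strand. For DDIT3 these are 2 and 2. Whether reads were lost to such overlaps was not tested, so both genes are weak readings of this response.

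Of the 30 gene lists, 0 had a member past the test of the shared effect. The list of drug metabolism and efflux genes does not hold ABCC4, so its 0 says nothing of that pump. At an unadjusted p under 0.05, 4.25% of all genes were higher and 3.66% lower. Of the 27 lists with at least 5 tested members, 21 had a median within 0.1 of 0. Of 15 matrix metalloproteinase and inhibitor genes 9 were tested. Of these 9, 3 were higher at an unadjusted p under 0.05 and the median was 0.12, with -0.01 in the GFP line. Leaving out single libraries moved that median between 0.055 (without replicate 1 of the induced SOX9 line) and 0.203 (without its replicate 2). It was 0.056 without replicate 1 of the uninduced M303 line, 0.195 without replicate 2 of the uninduced GFP line and 0.185 without replicate 1 of the induced GFP line. Of 17 genes of the iron and metal ion response, 1 was higher and 5 lower at that p (median -0.08), and of 21 NRF2 antioxidant response genes 1 was higher and 3 lower (median -0.06). Of 20 drug metabolism and efflux genes, 1 was higher and 3 lower (median -0.06). Their shared values ran from -0.553 to 0.473, with 6 above 0 and 14 below. Examples from these lists, chosen after their values were seen, were ABCB1, the efflux pump P-glycoprotein, at -0.27 (adjusted p = 0.294), and the bilirubin-conjugating enzyme UGT1A1 at -0.24 (adjusted p = 0.289).

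Lists of intestinal cell types spread by line. The 25 goblet cell genes had a median of -0.38 (0 passed in the shared effect, 15 were lower at an unadjusted p under 0.05, as were 3.66% of all genes), with line medians of -0.02, -0.24 and -0.85 (GFP, M303, SOX9), and 16 passed in the SOX9 line, where 2.97% of all genes did, and 0 in either other line. In bulk RNA, fewer cells of a type and less RNA per cell cannot be told apart. Of 38 enterocyte genes 25 were tested, and these had a median of -0.13, with -0.06, -0.08 and -0.28 in the same order. That median describes the tested genes only. The 7 tested Paneth cell genes had a median of 0.95, with 0.06, 0.47 and 2.14. That median was 0.523 without replicate 1 and 0.503 without replicate 2 of the uninduced SOX9 line, and 0.074 without the whole SOX9 line. Only 7 of 11 Paneth cell genes passed the filter on low counts, so this median does not speak for the list. A gene can pass that filter through the libraries of 1 group alone, such as the induced SOX9 libraries. The filter can thus favour genes that are high there, and its part in the 2.14 was not tested. In each of these lists the GFP line had the median nearest to 0.

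**Figure D5:**
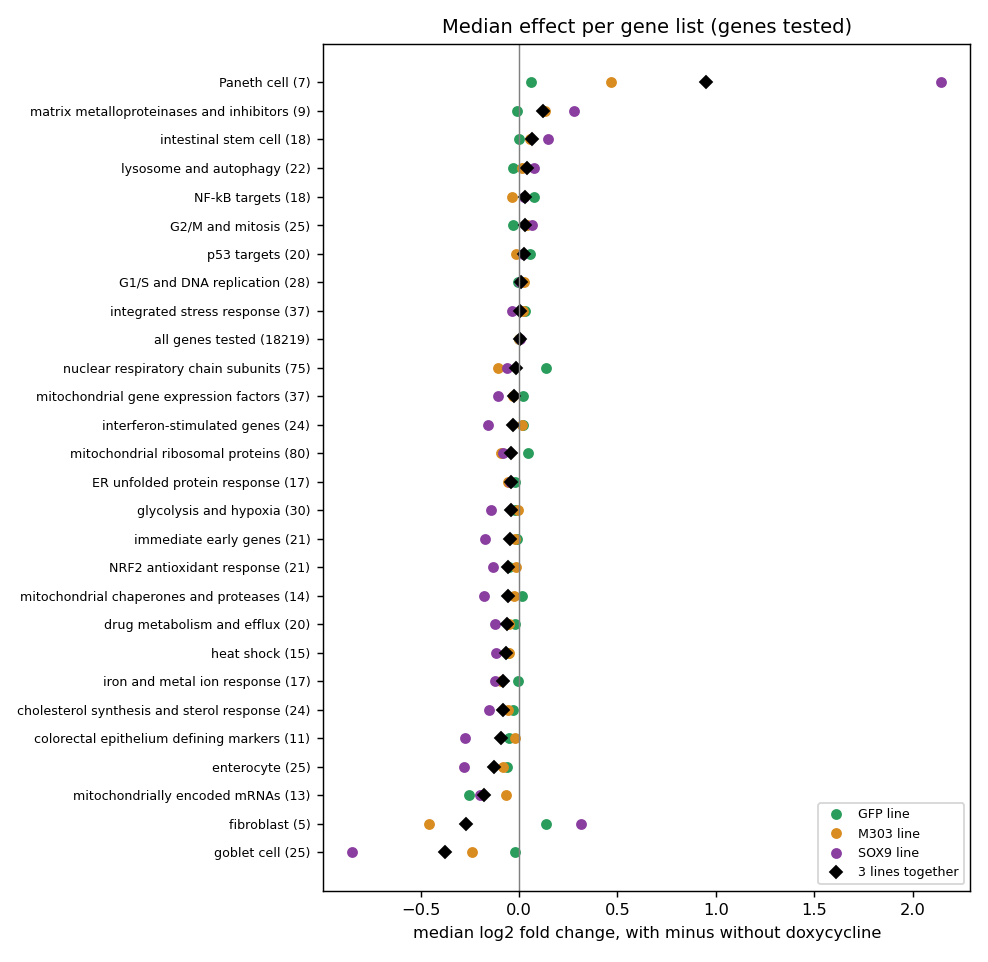
Median log2 fold change with doxycycline of the 27 gene lists with at least 5 tested members (number tested in brackets) and of all tested genes, for the shared effect (black) and each line (colours). The stress and cell cycle lists lie near the all-gene median of 0.003, while the goblet and Paneth cell lists spread by line from near 0 (GFP) to -0.85 and 2.14 (SOX9). The Paneth cell median covers only the 7 of 11 genes that passed the filter on low counts, which a gene can pass through 1 group alone.

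The libraries held 31012775 to 48529770 counts. Median totals were 36151185 without and 37058961 with doxycycline. Among the 13253 genes with a mean above 1 CPM, the median SE of the shared log2 fold change was 0.072 and the median half-width of its 95% interval 0.15. The SOX9 gene followed the labels, from 396 ± 4.63 to 388 ± 24 CPM with doxycycline in the GFP line, from 383 ± 22.7 to 843 ± 34.4 CPM in M303, and from 369 ± 16.8 to 736 ± 34.7 CPM in SOX9 (mean ± SD of 2 libraries). The transgene GFP was not among the counted genes, so its induction was not analysed here. All 11 defining markers of colorectal epithelium had a mean of at least 1 CPM, from KRT20 (7.89) to KRT8 (5930), with summed levels of 11000 to 12400 CPM without and 10200 to 12100 CPM with doxycycline. Of the fibroblast markers 1 of 10 and of the endothelial markers 1 of 8 reached 1 CPM, with summed levels of 1.58 to 3.01 and 2.2 to 4.14 CPM over all libraries. Of the blood and immune markers 2 of 12 did, LYZ, which Paneth cells also make, and CD14, while CD3E, CD3D and MS4A1 were at 0. Their summed level was 49 to 59.9 CPM without and 41.2 to 594 CPM with doxycycline, with LYZ alone reaching 590 CPM.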

How the data were processed

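Gene expression was measured in 12 LS180 libraries. The deposited unit is the raw count of reads per gene. The submitters' processing notes name STAR 2.7.0a and the build hg38. The authors counted with featureCounts 2.0.1 on Ensembl release 101, per the file headers. The recorded command counts each mate singly, ignores strand and omits reads that map to several places. The labels do not call the 2 libraries of a group separate cultures. The p-values then rest on the spread between libraries alone, which may be technical.

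The additive model (line plus doxycycline, 8 residual degrees of freedom) was fitted with edgeR 4.0.16 in R 4.3.3, with the robust quasi-likelihood test and TMM factors (0.981 to 1.02) computed from the deposited counts. The filter filterByExpr kept 18219 of 60671 genes. Symbols were found for 58536 genes from the gene name table and GENCODE 29. Adjusted p-values (Benjamini-Hochberg) run over all tested genes, with a threshold of 0.05. Line effects and the interaction came from a model with 6 group means. For the check that leaves out a line, the other 2 lines and the remaining one were fitted apart. The self-test on simulated counts used the same code. Promoter windows are from RefSeq. CPM values use TMM library sizes.

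Named genes were the called genes with the same sign in all 3 lines and a mean of at least 1 log2 CPM, filled to 6 per direction by smallest p, plus all mitochondrially encoded messages and ribosomal RNAs and 10 fixed genes (SOX9, ATF4, ASNS, DDIT3, TRIB3, CHAC1, PSAT1, MUC2, LYZ, KRT20). The rule also covered called list members, called genes with an interaction and called genes with another sign in the GFP line, of which there were 0. The 30 lists also cover ER stress, glycolysis, sterol synthesis, lysosome, immediate early, p53, cell cycle, heat shock, interferon and NF-kB genes, and intestinal stem cells, and 2 listed symbols were not in the table by name. The members and lists were chosen with earlier results of these data known. Alternatives were other scaling factors, no filter, DESeq2 1.42.0, a mean of line effects, replicate blocks, and leaving out each library or line.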

Additional observations from a re-analysis of the deposited data

Results flagged for a closer look

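Among the genes named by rule, 4 had a doxycycline effect that differed between the lines by the interaction test in edgeR, so their shared value describes no single line. SOX9 had log2 fold changes of -0.03, 1.14 and 1.00 in the GFP, M303 and SOX9 lines (edgeR interaction test, adjusted p = 1.861e-06). The M303 and SOX9 lines carry an inducible SOX9 construct and the GFP line does not, so this difference was built into the design. Counts per gene do not separate reads of the construct from those of the cells' own SOX9. LYZ, which encodes lysozyme, had 0.02, -0.32 and 3.50 (edgeR interaction test, adjusted p = 1.583e-13). MUC2, the secreted mucin of goblet cells, had -0.12, -0.13 and -1.54 (edgeR interaction test, adjusted p = 0.0003703). KRT20, a keratin of differentiated intestinal epithelium, had -0.02, -0.52 and -1.60 (edgeR interaction test, adjusted p = 0.01659).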

How the results depend on the processing

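ABCC4 passed in 21 of 22 alternatives, with log2 fold changes from 0.53 to 0.76, and CEMIP in 6 of 22. FLNC and MT-ND6, which did not pass in the reported fit, each passed in 7 of 22. The 2 genes of the shared effect became 1 with RLE factors, 1 with upper quartile factors, 47 with DESeq2 (21 higher, 45 of 1 sign in every line), 168 without the filter on low counts (130 of 1 sign) and 186 as the mean of the 3 line effects (121 of 1 sign), of which 174 also passed in the SOX9 line. They became 118 without the GFP line (118 of 1 sign), 1 without the M303 line and 0 without the SOX9 line, and 1 to 8 when single libraries were left out, with 8 without replicate 2 of the uninduced GFP line. The cause of these shifts was not tested. For the 118 genes without the GFP line, 1 sign means the same sign in the M303 and SOX9 lines only. Of these 118, 63 had that sign in the GFP line fitted by itself. The labels do not say whether equal replicate numbers mark paired libraries. Deviations of libraries with the same number were little correlated (-0.086, -0.098 and 0.096 in the GFP, M303 and SOX9 lines). With 2 libraries per group this cannot settle whether they were paired. With a replicate block of line by number, 4 genes passed (ABCC4, FLNC, MT-ND6 and HSPG2), and with a block of number across the lines 1 did. The 0 genes of the GFP line became 2 with DESeq2 and 4 without the filter. The 1 gene of the M303 line became 3 and 9, and the 133 of the interaction became 209 and 245.

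Leaving out single libraries gave 210 to 667 genes in the SOX9 line, lowest without replicate 2 of the induced SOX9 group (244 without its replicate 1, 281 without uninduced replicate 2), and 68 to 175 for the interaction, lowest without the same library (76 without induced replicate 1, 87 without uninduced replicate 1). Signs turned for LYZ without the SOX9 line (-0.15), for ASNS without the M303 line (0.12; single libraries -0.148 to 0.031) and for MT-ND3 without the M303 line (0.023) or the SOX9 line (0.002; single libraries -0.119 to 0.066). MT-RNR1 turned when 1 M303 library was left out (-0.16 to 0.032). A fit without a library that leaves 1 in its group assumes that it varies like the others. The median SE was 0.072 for the shared effect and 0.12 for 1 line. Whether a gene passed depended on its own SE as well as on its size. CEMIP at 0.28 (SE 0.046) passed narrowly, while PROX1 at 0.41 (SE 0.081) and FLNC at -0.60 (SE 0.104) did not pass.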

Other observations

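Other gene groups without a member past the shared test are given as values, and the genes named here were chosen after their values were seen. Of 15 heat shock genes 5 were lower at an unadjusted p under 0.05 (3.66% of all genes were), with a median of -0.07. The chaperone HSPA8 had -0.11 in the GFP line, -0.03 in the M303 line and -0.19 in the SOX9 line. Of 24 genes of cholesterol synthesis and the sterol response 8 were lower at that p, with line medians of -0.03, -0.05 and -0.15 (GFP, M303, SOX9). INSIG1, which retains the sterol sensor in the endoplasmic reticulum, had line values of -0.04, -0.10 and -0.44 (shared adjusted p = 0.314). Of 21 immediate early genes 3 were higher and 5 lower at that p, beside 4.25% and 3.66% of all genes. Their line medians were -0.01, -0.02 and -0.17 (GFP, M303, SOX9). ZFP36, which destabilises inflammatory messages, had line values of -0.24, -0.16 and -0.36 (shared adjusted p = 0.206).

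Of 18 NF-kB targets 1 was higher and 2 lower at an unadjusted p under 0.05, beside 4.25% and 3.66% of all genes. Their median was 0.03, with shared values from -0.545 to 0.883. The highest, the chemokine CCL20, had line values of 1.09, 0.35 and 1.19 (shared log2 fold change 0.88, SE 0.31, adjusted p = 0.477). Of 24 interferon-stimulated genes 3 were higher (IFI6, IFI27 and STAT2) and 2 lower (ISG15 and IRF1) at an unadjusted p under 0.05. IFI6 had line values of 0.54, 0.05 and 2.33, and the transcription factor IRF1 had -0.34, -0.37 and -0.17 (shared adjusted p = 0.476). Of 28 genes of the G1/S transition and DNA replication 1 was higher and 1 lower at an unadjusted p under 0.05, with a median of 0.01. Of 25 genes of G2/M and mitosis 0 reached that p in either direction, with a median of 0.03.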
